A study of Mus musculus with 36 samples.

Results

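Empty-vector background regions are the places that an anti-HA pulldown recovered from mouse embryonic stem cells carrying no tagged histone. They were chosen by the authors' peak calls on that pulldown, so the values that chose them are its own enrichment over input, and all peaks were taken: 3007 regions of the 135634 in the 4 lists used here. The study followed HA-tagged histone H4 into chromatin of stem cells and of neural cells derived from them. Of its 36 samples, 18 pulldowns and 18 inputs, 4 pulldowns were used, with 1 library per group. All 4 lines were otherwise unmodified mouse embryonic stem cells with a stably integrated PiggyBac transposon vector. The vector was empty in one line (EV) and in the others encoded HA-tagged H4WT (wild-type H4), H4K91R (lysine 91 replaced by arginine) or H4K91Q (lysine 91 replaced by glutamine). The same anti-HA magnetic beads were used for all 4. The labels do not say whether a line was a clone, and nothing in a peak list checks the cell type or the transgene, so the libraries are described by their labels. Depth is unknown, because peak lists carry no read counts, and with no replicate no difference between libraries was tested.

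HA is a short peptide from influenza haemagglutinin that is fused to a protein so that beads carrying an anti-HA antibody can pull it down. In ChIP-seq, fixed chromatin is sheared and the DNA that comes down with the beads is sequenced and set against unenriched input. Cells with the vector alone give the background of such a pulldown: DNA that sticks to beads, chromatin that shears or is recovered unevenly, and sequences whose copy number in cells differs from that in the reference genome. Such places can also be called in the tagged pulldowns, which is why a control of this kind is made.

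Sequence could be shown where regions met the windows of RefSeq (GRCm38.p6, the build also called mm10) that run from 250 bases before to 50 bases after an annotated gene start. Of 32851 such windows, 75 met an empty-vector region, a share of 0.228%. The share was 31% for H4WT regions, 13.7% for H4K91R regions and 0.502% for H4K91Q regions, whose lists are longer. The 75 windows belonged to 69 genes, 41 protein-coding and 28 for long non-coding RNAs, and to 68 regions (2.26% of the list). The windows below are shown because they are the protein-coding ones of highest fold with at least 100 bases inside a region, followed by the non-coding window whose region had one of the highest −log10 q values. Each line gives 280 bases, from 250 before to 30 after the start, 5′ to 3′ on the gene's strand, with the bases inside the empty-vector region in capitals.
Arhgap4: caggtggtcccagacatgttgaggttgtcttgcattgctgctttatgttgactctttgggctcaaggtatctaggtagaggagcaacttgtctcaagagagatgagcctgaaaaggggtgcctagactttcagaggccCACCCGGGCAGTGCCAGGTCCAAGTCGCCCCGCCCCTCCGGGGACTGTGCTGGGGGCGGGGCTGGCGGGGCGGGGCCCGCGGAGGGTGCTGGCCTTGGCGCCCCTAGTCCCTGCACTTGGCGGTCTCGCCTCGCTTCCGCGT
Prm3: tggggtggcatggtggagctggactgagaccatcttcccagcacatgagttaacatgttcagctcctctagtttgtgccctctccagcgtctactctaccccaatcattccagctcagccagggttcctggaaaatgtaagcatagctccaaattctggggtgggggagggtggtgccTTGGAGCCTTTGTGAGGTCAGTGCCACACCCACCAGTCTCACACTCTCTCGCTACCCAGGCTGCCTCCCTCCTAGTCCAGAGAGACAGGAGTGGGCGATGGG
Otop3: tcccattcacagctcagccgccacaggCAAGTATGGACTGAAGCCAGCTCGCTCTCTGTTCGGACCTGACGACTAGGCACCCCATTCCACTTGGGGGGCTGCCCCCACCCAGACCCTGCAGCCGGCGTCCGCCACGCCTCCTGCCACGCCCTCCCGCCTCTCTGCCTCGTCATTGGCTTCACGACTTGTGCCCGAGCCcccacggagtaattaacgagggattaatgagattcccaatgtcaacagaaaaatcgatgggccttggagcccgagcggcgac
Ddr1: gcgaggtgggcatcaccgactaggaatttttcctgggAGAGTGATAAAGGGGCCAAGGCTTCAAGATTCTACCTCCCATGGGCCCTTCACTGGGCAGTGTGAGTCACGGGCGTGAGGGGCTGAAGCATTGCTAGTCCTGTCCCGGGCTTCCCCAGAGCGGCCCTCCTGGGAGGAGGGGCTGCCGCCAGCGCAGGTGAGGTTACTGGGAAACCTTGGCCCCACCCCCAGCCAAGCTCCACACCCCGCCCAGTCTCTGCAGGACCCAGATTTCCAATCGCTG
Mag: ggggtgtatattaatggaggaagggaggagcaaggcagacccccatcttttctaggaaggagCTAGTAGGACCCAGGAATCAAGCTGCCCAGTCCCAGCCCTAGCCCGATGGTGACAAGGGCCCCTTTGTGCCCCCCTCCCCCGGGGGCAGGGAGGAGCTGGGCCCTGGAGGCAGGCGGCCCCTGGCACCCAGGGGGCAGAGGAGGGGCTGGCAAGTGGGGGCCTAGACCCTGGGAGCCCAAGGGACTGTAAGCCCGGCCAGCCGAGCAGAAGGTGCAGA
Scn4a: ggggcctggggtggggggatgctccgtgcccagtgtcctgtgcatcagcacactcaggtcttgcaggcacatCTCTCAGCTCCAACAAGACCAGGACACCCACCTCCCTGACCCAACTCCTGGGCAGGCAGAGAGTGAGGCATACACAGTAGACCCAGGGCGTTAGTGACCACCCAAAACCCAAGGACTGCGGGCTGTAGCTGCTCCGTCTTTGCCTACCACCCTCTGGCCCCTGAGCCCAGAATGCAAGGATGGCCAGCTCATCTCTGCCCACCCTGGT
Gm40237: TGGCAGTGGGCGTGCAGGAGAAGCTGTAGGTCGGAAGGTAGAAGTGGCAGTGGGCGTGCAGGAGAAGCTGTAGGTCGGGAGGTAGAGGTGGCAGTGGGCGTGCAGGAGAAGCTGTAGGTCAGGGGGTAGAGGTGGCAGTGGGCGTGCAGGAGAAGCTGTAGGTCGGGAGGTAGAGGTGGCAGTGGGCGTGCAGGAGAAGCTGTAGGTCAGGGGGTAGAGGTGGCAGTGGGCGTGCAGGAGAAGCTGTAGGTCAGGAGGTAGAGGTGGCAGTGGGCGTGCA
Arhgap4, which encodes a GTPase-activating protein, lies on the minus strand with its printed bases at chrX:73911269-73911548. Prm3, a protamine gene of the sperm cell cluster, lies on the minus strand at chr16:10790885-10791164. Otop3, a gene for an otopetrin proton channel, lies on the plus strand at chr11:115334481-115334760. Ddr1, a collagen receptor tyrosine kinase gene, lies on the minus strand at chr17:35702015-35702294. Mag, which encodes myelin-associated glycoprotein, lies on the minus strand at chr7:30914834-30915113. Scn4a, the gene of the skeletal muscle sodium channel, lies on the minus strand at chr11:106349361-106349640. The start of the non-coding gene Gm40237 lies on the plus strand at chr4:118547156-118547435.

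These stretches were rich in G and C but mostly not dense in CpG. Over their 300-base windows, the GC content was 63.3% for Arhgap4, 57% for Prm3, 63% for Otop3, 62% for Ddr1, 65% for Mag, 63% for Scn4a and 62.7% for Gm40237. Arhgap4 held 16 CpG and Otop3 22, whereas Mag held 6 and Prm3 and Scn4a held 4 each. Across all 75 windows the median was 60.7% GC and 10 CpG, against 52.7% and 7 for all windows and 64.7% and 24 for windows meeting H4WT. Among protein-coding windows alone, those meeting an empty-vector region had a median of 62.3% GC and 11.5 CpG, against 56.3% and 13 for all. The 6 letters GGGCGG, read on either strand, were in 42.7% of the 75 windows, in 35.7% of all windows and in 71.7% of those meeting H4WT. The windows under empty-vector regions were thus closer to H4WT windows in GC content than in CpG number. The printed Gm40237 window is a tandem repeat: shifted by 88 bases it matched itself at 97.6% of its positions. An identity of 80% or more at any shift of 10 to 100 bases, a limit chosen after the sequences were seen, was found in 1 of the 75 windows. That 1 is the printed Gm40237 window itself, so the count says nothing about other regions. It was found in 18 of all 32851 windows, 2 of 10197 meeting H4WT, 3 of 4500 meeting H4K91R and 3 of 165 meeting H4K91Q.

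Most regions were short, with modest −log10 q values. The 3007 regions covered 0.609 Mb, with a median width of 174 bp, and 897 of them (29.8%) had the list's smallest width of 163 bp. At the upper end, 300 were wider than 254 bp, 73 were over 400 bp and 9 reached 1 kb. The authors' fold enrichment over background at the summit, a ratio used here only to describe and rank regions of a list, ran from 1.80 to 10.5 with a median of 5.48. The authors' −log10 q, the false discovery rate on a log scale, ran from 1.77 to 77.9 with a median of 4.11. The list holds only places past the authors' threshold, so 1.77 marks its lower edge. A −log10 q of 5 or more was reached by 853 empty-vector regions (28.4%), against 71.5% of H4WT, 53.4% of H4K91R and 73.4% of H4K91Q regions. Fold values repeated: the list held 827 different ones, the 10 commonest covered 21.5% of regions, and the fold of 5.14 alone occurred in 118 regions, all with the same −log10 q.

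**Figure D1:**
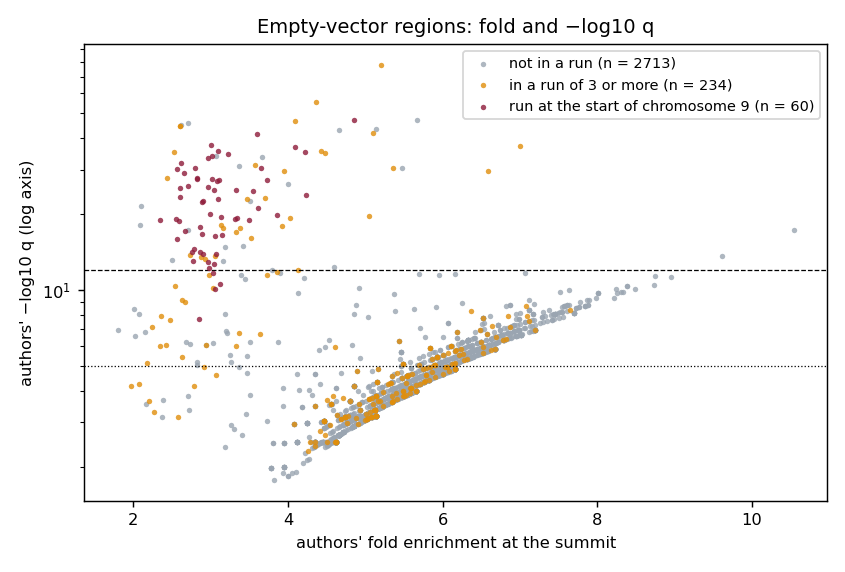
Authors' fold enrichment at the summit (linear axis) against −log10 q (log axis) for all 3007 empty-vector regions, with regions coloured by whether they lie in a run of 3 or more with gaps of at most 10 kb. Dashed and dotted lines mark −log10 q of 12 and 5. Most regions lie on a narrow rising band, while 108 regions lie at 12 or above, mostly at folds under 5, and 56 of those are in the run at the start of chromosome 9.

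The plot of fold against −log10 q shows a narrow band and a group above it. Among the 2899 regions with a −log10 q under 12, both values went up together along the band, with a Spearman rank correlation of 0.848 over regions, which share a library. The other 108 regions (3.59%) reached 12 or more, a limit set after seeing this plot. Of these, 97 had a fold under 5, as did 22.7% of the rest, and their median fold was 3.12. They were wide, with a median of 407 bp, and made up 9.70% of the list's bases. Their places were few: they fell into 30 stretches with gaps of at most 10 kb, and 56 of them were in 1 stretch on chromosome 9. Counted by region, 87 of the 108 (80.6%) lay outside protein-coding genes.

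Places with a −log10 q of 12 or more lay both outside and inside protein-coding genes. Among the 22 such regions not in runs, those in Cmss1, Mdga2, Sfi1, Zc3h7a, Cdk8, Chl1, 2210408I21Rik, Ank1, Arpc1b and Jarid2 were inside. No repeat annotation was used here. The largest stretch, chr9:2999971-3038309, held 60 regions that covered 74.0% of 38.3 kb at the first assembled bases of chromosome 9, next to the centromere. Of the 60, 56 had a −log10 q of 12 or more, 56 met an H4WT region, 59 an H4K91R region and 0 an H4K91Q region. The highest −log10 q of the list, 77.9, belonged to chr17:39842954-39846413, 3460 bp wide. It lies in a run of 4 regions that covered 97.0% of chr17:39842954-39848892, where the table annotates the ribosomal RNA pseudogene Rn18s-rs5. Ribosomal RNA genes are repeated in long arrays that the reference holds only in part. All 4 met H4WT and H4K91R, and 2 met H4K91Q. The widest region, chr14:19415643-19419762, was 4120 bp long with a fold of 2.70 and a −log10 q of 45.7. It met H4WT and H4K91R, and its nearest protein-coding gene was 114 kb away. A run of 4 at chr2:98662190-98667382 lay 1031 kb or more from the nearest protein-coding gene, Lrrc4c, and had −log10 q values from 27.8 to 44.6. The region over Gm40237, chr4:118547023-118548803, was 1781 bp wide with a −log10 q of 47.0 and met all 3 tagged lists. How reads with several possible places were treated is not given in the sources used here, so values at any multicopy sequence are uncertain.

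Runs also occurred at low −log10 q inside genes. In all, 63 runs held 294 regions (9.78%), and 54 of the runs touched a protein-coding gene. Another 193 pairs and 2327 regions on their own (77.4%) made up the rest. The run over Sfi1, a gene for a centrin-binding protein of the spindle pole, and the pseudogene Pisd-ps1 at chr11:3127223-3177202 held 17 regions with −log10 q from 3.31 to 41.9. Of these, 16 met H4WT, 16 H4K91R and 4 H4K91Q. The run at the Duxf3 locus, chr10:58220835-58232625, held 6 regions, all meeting H4WT and H4K91R and 0 meeting H4K91Q. Duxf3 belongs to the Dux family, which lies in a tandem array. The run in Tmem267 at chr13:119598136-119602146 also held 6 regions, of which 5 met H4K91Q. By contrast the 5 regions of a run in Gcn1, chr5:115611578-115619306, had folds of 4.90 to 7.65 and −log10 q values of only 2.97 to 8.38. Gcn1 activates the amino acid sensing kinase Gcn2.

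Most empty-vector regions were found again in the H4WT list, fewer in the H4K91R list and few in the H4K91Q list. An overlap of 1 bp or more with H4WT was seen for 2106 of 3007 regions (70.0%, exact Clopper-Pearson 95% interval 68.4 to 71.7, counting error only). Windows of the same widths within 50 kb on each side met H4WT in 7.63% of cases, and windows of 174 bp over the genome in 1.29%. For H4K91R the number was 1298 (43.2%, 41.4 to 45.0), against 4.29% of the nearby windows and 0.905% of the genome. For H4K91Q it was 103 (3.43%, 2.80 to 4.14), against 0.512% and 0.308%. Around regions that were not in runs, 7.08%, 3.93% and 0.486% of nearby windows met the H4WT, H4K91R and H4K91Q lists. No tagged list met 752 regions (25%, 23.5 to 26.6). The order of the 3 lists follows their lengths of 69158, 49155 and 14314 regions, and with each shortened to 14314 by −log10 q the shares were 28.2%, 19.9% and 3.43%.

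By combination, 955 regions met H4WT alone, 1051 met H4WT and H4K91R, and 99 met all 3. H4K91R alone met 146. Only 4 regions met H4K91Q without meeting both other lists: 2 with H4K91R, 1 with H4WT and 1 with H4K91Q alone. Thus 99 of the 103 regions in the H4K91Q list were also in both others. The 12 regions of −log10 q of 12 or more that met H4K91Q were all among these 99.

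The overlaps were mostly whole, though only narrowly so for H4K91R. Of the regions met by H4WT, 1342 (63.7%) lay entirely inside the H4WT region, as did 668 (51.5%) for H4K91R and 69 (67.0%) for H4K91Q. The overlap with an H4WT region had a median of 170 bp, with H4K91R 166 bp and with H4K91Q 184 bp. Among regions that met a list, empty-vector summits were a median of 60 bp from the H4WT summit, 78 bp from that of H4K91R and 42 bp from that of H4K91Q. An overlap of short regions by itself keeps summits close, and no expected distance was worked out. The H4WT list covered 65.6% of empty-vector summits, 31.3% and 33.2% of the positions 200 bp to either side, 13.8% and 13.6% at 500 bp, and 7.52% and 6.82% at 10 kb. The H4K91R list covered 37.7% of summits, 10.01% and 9.34% of positions at 500 bp, and 4.72% and 3.72% at 10 kb. For H4K91Q the shares were 3.16% at the summit, 0.998% and 0.898% at 500 bp, and 0.333% and 0.299% at 10 kb. Each of the 3 lists was thus densest at the empty-vector summit and came down within 500 bp on both sides. Of the 901 without an H4WT overlap, 39.3% had an H4WT region within 5 kb, against 49.2% of nearby windows that also missed the list. Those windows lie around all empty-vector regions, not the unmet ones alone, so each such pair of shares describes unlike surroundings. For H4K91R it was 42.3% of 1709 against 39.3%, and for H4K91Q 3.06% of 2904 against 3.96%.

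**Figure D2:**
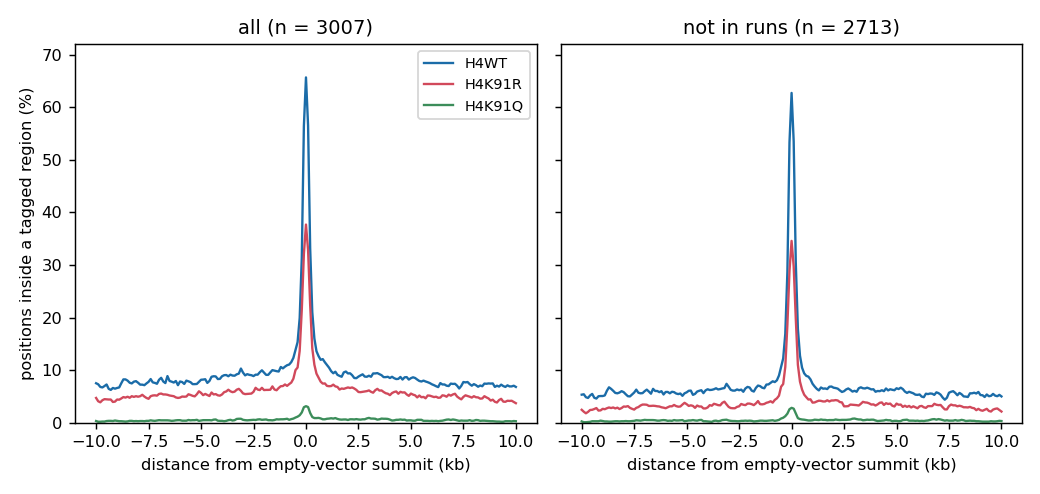
Share of positions inside a region of each tagged list (vertical axis, %) by distance from the empty-vector summit (horizontal axis, kb), for all 3007 regions on the left and for the 2713 not in runs on the right. Each line peaks at the summit, at 65.6% for H4WT, 37.7% for H4K91R and 3.16% for H4K91Q on the left, and the H4WT line is near 7% at 10 kb.

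Seen from the tagged lists, the shared places were a small part. Empty-vector regions were met by 2080 H4WT regions (3.01% of that list), 1257 H4K91R regions (2.56%) and 108 H4K91Q regions (0.755%). These tagged regions were wider than the rest of their lists, with H4WT medians of 346 against 265 bp, H4K91R medians of 326 against 270 bp and H4K91Q medians of 402.5 against 317 bp. The overlap rule itself favours wide regions, which have more bases to share, and this also applies to the 1 kb counts below. Tagged regions that met an empty-vector region took a larger share of the regions of high −log10 q. With the lists divided into 10 equal parts by −log10 q, the lowest part of H4WT had 1.26% and the highest 6.71%, and those of H4K91R had 1.48% and 5.31%. In the H4K91Q list the lowest part by −log10 q had 0.559% and the highest 2.58%. Divided by fold instead, H4K91Q had 2.79% in the lowest part, 1.68% in the highest and 0.210% to 0.629% in the 8 between. Of the H4WT regions at least 1 kb wide, 121 of 1565 (7.73%) met an empty-vector region, as did 60 of 690 (8.70%) for H4K91R and 15 of 774 (1.94%) for H4K91Q.

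The overlap differed with the empty-vector region's −log10 q, width and fold. Of the 108 regions with a −log10 q of 12 or more, 105 met H4WT, 107 met H4K91R, 12 met H4K91Q and 0 met no list. A count of 0 among 108 has an exact upper limit of 3.36% if the regions are taken as independent. They fell into only 30 stretches, and 56 of them shared the same stretch on chromosome 9, so this limit is too low. Of the 2154 regions with a −log10 q under 5, 67.1% met H4WT, 39.5% H4K91R and 2.83% H4K91Q, and 28.0% met no list. At the smallest width of 163 bp, 59.4% met H4WT and 33.3% H4K91R, and over 254 bp 91% and 78.3% did. A wider region has more bases with which to meet another. With the list divided into 5 groups of equal size by fold, the group of lowest fold was met most by every tagged list: 76.2% by H4WT against 65.2% to 71.7% in the other groups, 58.1% by H4K91R against 37.1% to 42.1%, and 6.98% by H4K91Q against 2.16% to 2.99%. Divided by −log10 q, the highest group was met most: 77.2% by H4WT against 64.8% to 71.4%, 58.0% by H4K91R against 38.1% to 40.9%, and 6.31% by H4K91Q against 1.66% to 3.83%. Of the 172 regions with a fold under 4, which include most of those with a −log10 q of 12 or more, 90.7% met H4K91R. In runs, 94.2% met H4WT, 72.1% H4K91R and 7.48% H4K91Q, against 67.4%, 40.03% and 2.99% of the 2713 regions not in runs.

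**Figure D3:**
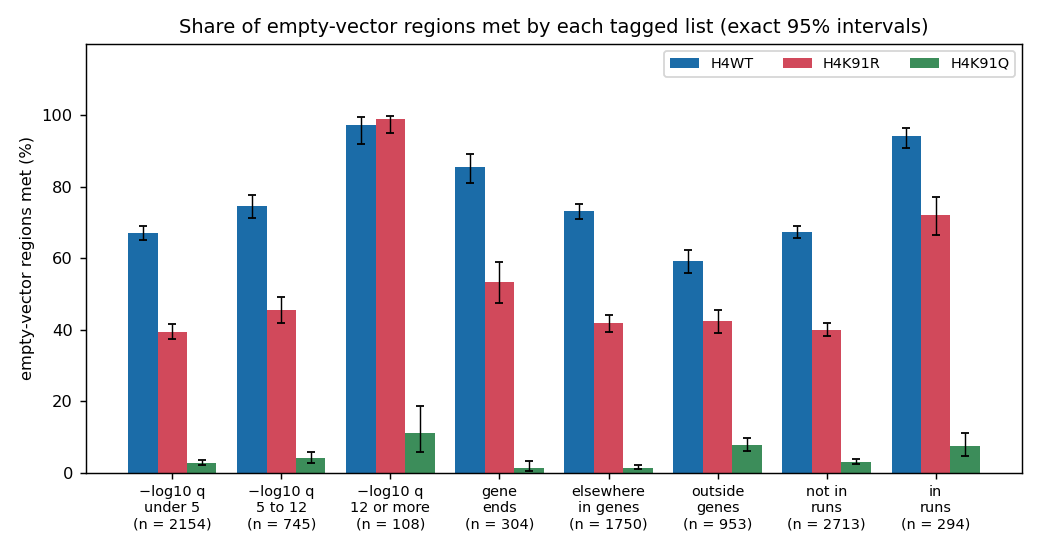
Share of empty-vector regions (vertical axis, %, from 0) met by the H4WT, H4K91R and H4K91Q lists, by −log10 q, place and runs. Bars give shares and lines their exact 95% intervals, which cover counting error only. At a −log10 q of 12 or more nearly every region was met by H4WT (105 of 108) and H4K91R (107 of 108), and the H4K91Q share was highest there (11.1%) and next highest outside genes (7.76%).

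The 10 regions of highest fold were 191 to 468 bp wide. The highest, chr2:33933934-33934401 in the non-coding gene Gm39793, had a fold of 10.5 over 468 bp and met H4WT and H4K91R. Next came chr5:145123540-145123740, with a fold of 9.61, in Arpc1b, a subunit gene of the actin-branching Arp2/3 complex. It too met H4WT and H4K91R. A region of fold 8.38 in Rbfox1, the gene of a neuronal splicing regulator, at chr16:6129362-6129589, met H4K91R alone. The region chr10:8646190-8646380, fold 8.48, lay 75.8 kb from the nearest protein-coding gene, Sash1, and met no tagged list, the highest of its class. A region 1.07 kb from Dpy30, a subunit gene of histone H3 lysine 4 methyltransferases, at chr17:74325012-74325238, had a fold of 8.33 and met H4WT alone. Among those meeting all 3 lists, the highest fold was 8.01, at chr6:87457341-87457652 beside Arhgap25, another GTPase-activating protein gene. The H4WT region over it was 1069 bp wide, that of H4K91R 1341 bp and that of H4K91Q 1049 bp. Regions with a fold above 8 thus fell in each of these 5 classes.

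By count, most regions lay inside protein-coding genes and more than 1 kb from an end, but set against the genome the places near ends were the most over-represented. By midpoint, 304 (10.1%, 9.05 to 11.2) were within 1 kb of an end, 1750 (58.2%, 56.4 to 60.0) were elsewhere in a gene and 953 (31.7%, 30.03 to 33.4) were outside. For comparison, 455204 of the 15646098 genome windows of 174 bp fell near an end. Another 5677708 fell farther inside a gene and 9513186 in neither place. Both kinds of place in genes thus held a larger share of regions than of windows, more so near an end. The regions outside genes were a median of 48.4 kb from the nearest protein-coding gene. Of these, 348 were over 100 kb away and 220 lay in or met another annotated gene. The 12727 long non-coding genes were overlapped by 234 regions, 9944 pseudogenes by 65, 485 transcribed pseudogenes by 11 and 1228 microRNA genes by 7. The annotated 408 transfer RNA, 1004 small nuclear, 1340 small nucleolar and 63 ribosomal RNA genes were overlapped by 0. Rn18s-rs5 is annotated as a pseudogene and is not among these ribosomal RNA genes. No expected count was worked out for a list covering 0.609 Mb, so a count of 0 is not read as avoidance. The H4WT overlap was 85.5% at gene ends (81.1 to 89.3), 73.3% elsewhere in genes (71.1 to 75.3) and 59.2% outside (56.0 to 62.3). The surroundings had the same order: of nearby windows at gene ends 22.7% met H4WT, of those elsewhere in genes 9.60% and of those outside 2.43%. For H4K91Q the share was 1.32% at ends, 1.43% elsewhere in genes and 7.76% outside (6.15 to 9.65), against 0.407%, 0.353% and 0.731% of nearby windows. Regions met by no list lay outside genes in 44.1% of cases, those met by H4WT alone in 22.5%, and those met by all 3 in 70.7%.

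Along genes, the regions had their largest share in the part next to the far end, whereas H4WT and H4K91R had theirs in the part at the start. Strand was known for 2947 regions, those off chromosome 18. Of these, 113 (3.83%) lay within 1 kb of a protein-coding start, 15 upstream and 98 downstream. H4WT regions that met no empty-vector region lay there in 16.8% of cases, H4K91R in 13.4% and H4K91Q in 0.957%. The fullest 250 bp around empty-vector starts was 250 to 500 bp downstream, with 39 regions. Within 1 kb of the other end there were 151 empty-vector regions (5.12%), 118 inside the gene and 33 beyond it, against 4.75% of H4WT regions. In genes of 10 kb or more, 5 equal parts from start to end held 14.3%, 11.7%, 16.8%, 23.2% and 34.0% of 1422 empty-vector regions. For H4WT these were 34.5%, 12.2%, 13.5%, 16.2% and 23.6%, and for H4K91R 34.1%, 11.9%, 14.3%, 15.9% and 23.8%, so from the second part on both lists also went up toward the end. H4K91Q was nearly even, at 18.5% and 20.6%. Without runs, the last part still held 32.6% of 1290 empty-vector regions.

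**Figure D4:**
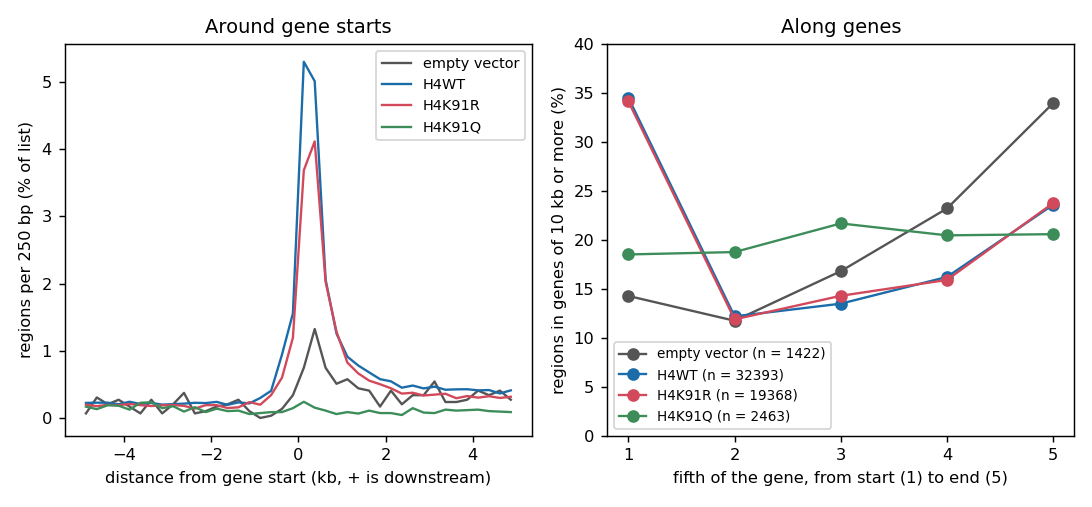
Left, regions per 250 bp as a share of each list (vertical axis, %) by distance from a protein-coding gene start (kb, downstream positive), for empty-vector regions and for tagged regions that met none of them. Right, share of each list's regions within genes of 10 kb or more in 5 equal parts of the gene, from start (1) to end (5). Empty-vector regions have a low peak just downstream of starts and their highest share, 34.0%, in the last part, where H4WT has its highest, 34.5%, in the part at the start.

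Of 21883 protein-coding genes, 1657 (7.57%) had an empty-vector region in the gene or within 1 kb of it. Most, 1350, had 1 region, 205 had 2 and 102 had 3 or more. Genes with an empty-vector region were long, with a median of 37.8 kb against 17.2 kb for all. With genes divided into 5 equal groups by length, the share with a region went from 1.62% of the shortest to 14.9% of the longest genes. Per Mb of gene, however, there were 4.50, 5.42, 4.78, 2.87 and 1.20 regions from the shortest to the longest group, so per base the shorter genes held more.

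The genes with most regions were mainly long ones. Sfi1 had 17, 16 of them meeting H4WT and 5 H4K91Q. Gse1 had 13, all meeting H4WT, 7 meeting H4K91R and 0 meeting H4K91Q, in a gene that held 231 H4WT regions. Cux2, a homeobox gene of upper-layer neurons, had 7, all meeting H4WT, with folds from 3.95 to 8.24. Zfp423, which encodes a zinc finger transcription factor, also had 7, of which 5 met H4WT and 2 no list. Megf6 had 6. Cdh23, the gene of a tip-link cadherin of hair cells, had 6, of which 3 met H4WT and 2 met no list. Tmem267 had 6, with folds of only 1.97 to 3.63, and 5 of them met H4K91Q. Hspg2, the gene of the basement membrane proteoglycan perlecan, and Gcn1 had 5 each, all meeting H4WT. In Gse1, Cux2, Zfp423, Megf6, Cdh23, Hspg2 and Gcn1 the count meeting H4K91Q was 0, and the H4K91Q list had no region in any of them.

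At gene ends, 366 genes (1.67%) had a region, against 58.9% with an H4WT region, 38.3% with an H4K91R and 1.29% with an H4K91Q region. The highest fold was at Slc16a5, a gene of the monocarboxylate transporter family, at chr11:115462588-115462826, with a fold of 8.38, and that region met H4WT and H4K91R. Hap1, which encodes huntingtin-associated protein 1, had a region of fold 8.30 at chr11:100348017-100348278 that met H4WT alone. At Arhgap25 both regions in the gene or within 1 kb of it met all 3 lists. Arhgap4, shown above, had a fold of 7.71 and met H4WT alone. The neighbours Rac3, a small GTPase gene, and Dcxr, a sugar reductase gene, shared 1 region of fold 7.28 that met H4WT and neither mutant. Rbm38 had 7.19, Gpr37l1 7.17 and Vac14 7.11, each meeting H4WT. The protamine genes Prm2 and Prm3 shared the region of fold 7.05 printed above, which met no tagged list. Each also had a region of fold 6.24 in the gene or within 1 kb of it, which met H4WT and H4K91R.

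Gene lists held few genes with a region at an end. With 1.67% of all genes having one, most lists are too short for a count of 0 or 1 to differ from that share. Some lists also hold short genes, with medians of 0.496 kb for histone and 0.95 kb for olfactory receptor genes, against 17.2 kb for all. At an end, 0 of 30 pluripotency genes, 0 of 30 neural progenitor genes, 0 of 30 highly expressed genes of dividing cells, 0 of 30 splicing factors, 0 of 25 imprinted genes and 0 of 67 replication-dependent histone genes had a region. Gata4, an endoderm and heart transcription factor gene, was the only 1 of 26 mesoderm and endoderm genes. Rpl39l was the only 1 of 85 cytosolic ribosomal protein genes, Mrpl53 the only 1 of 78 mitochondrial ones and Hoxb13 the only 1 of 39 Hox genes. Of 397 Zfp genes, 7 (1.76%) had a region at an end, led by Zfp747, Zfp707 and Zfp821 with folds of 6.98, 6.52 and 6.38. Of 1110 olfactory receptor genes, 4 (0.360%) did, with Olfr95, Olfr1093 and Olfr222 highest, at 5.12, 5.04 and 4.85. H4WT regions were at an end of 23 of the 30 pluripotency genes, 29 of the 30 splicing factors and 63 of the 85 cytosolic ribosomal protein genes. They were at an end of only 11 of the 67 histone genes and 26 of the 1110 olfactory receptor genes. Anywhere in the gene or within 1 kb, 7.57% of all protein-coding genes had a region, and these lists held too few to be set apart from that share. A region was in 2 of 30 pluripotency genes (6.67%, Sall4 and Tbx3) and 2 of 30 neural progenitor genes (6.67%, Notch1 and Msi1). It was in 2 of 25 imprinted genes (8%, Meg3 and Gnas) and 1 of 30 splicing factors (3.33%, Son). Of 30 highly expressed genes, 2 had a region (6.67%, Fasn and Eef2), and the histone count remained 0. These gene names, outside those at an end, were chosen after their values were seen.

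Chromosome 8 stood apart. It held 369 regions (12.3%, 11.1 to 13.5), or 2.85 per Mb, against 1.88 per Mb on chromosome 11, the next highest, and 0.525 on chromosome 3, the lowest autosome. The same chromosome held 7.80% of H4WT, 8.04% of H4K91R and 4.98% of H4K91Q regions and 4.76% of protein-coding genes. For every 100 H4WT regions there were 6.84 empty-vector regions on chromosome 8, 5.98 on chromosome 9 and 3.61 to 4.90 on each other autosome. Without runs, which removes the block at the start of chromosome 9, it was 5.61 on chromosome 8 and 2.94 to 4.26 on the other autosomes. Set against H4K91R regions without runs, chromosome 8 had 7.67 per 100 and the others 4.27 to 6.95. Of the 63 runs, 19 were on chromosome 8, although 1 of its 369 regions reached a −log10 q of 12. In the 1 Mb windows densest in genes, the mean was 8.04 empty-vector regions per window on chromosome 8 and 2.71 elsewhere, while H4WT had 117 and 72.1. Regions on chromosome 8 met H4WT in 81.3% (76.9 to 85.1), H4K91R in 54.2% and H4K91Q in 1.90% of cases. Off that chromosome the shares were 68.5% (66.6 to 70.2), 41.6% and 3.64%. The nearby windows differed in the same direction, at 12.1% on chromosome 8 and 7.02% off it for H4WT, 7.25% and 3.88% for H4K91R, and 0.299% and 0.541% for H4K91Q. Input coverage by chromosome was not analysed here.

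**Figure D5:**
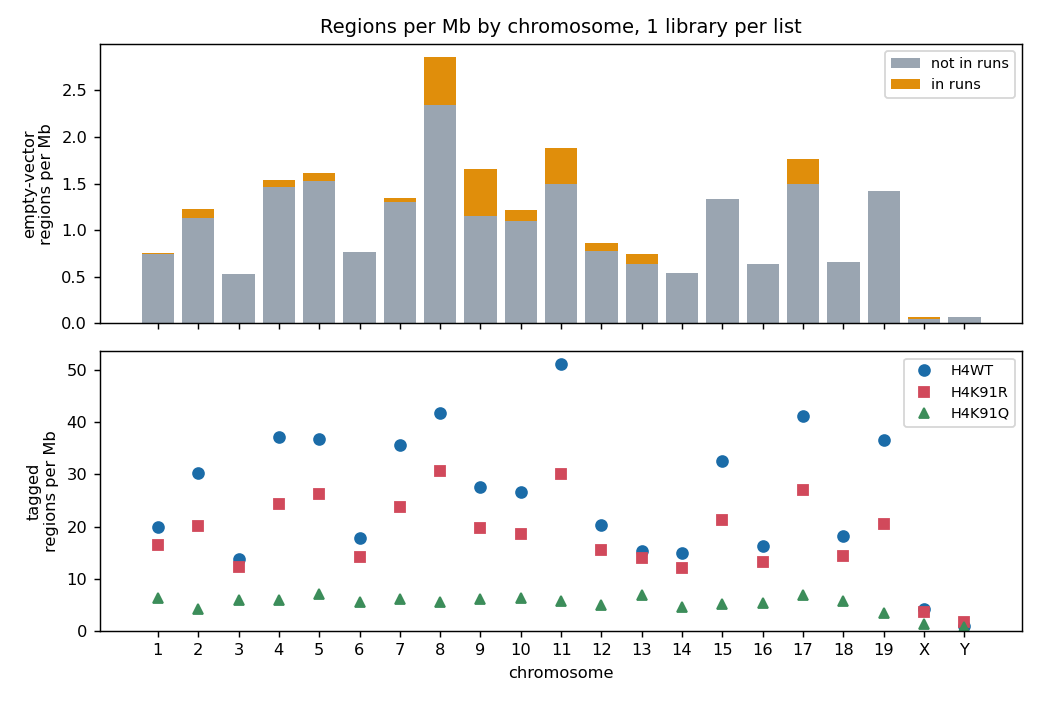
Top, empty-vector regions per Mb by chromosome, stacked by whether they lie in runs. Bottom, regions per Mb of the 3 tagged lists on the same chromosomes. Each list is 1 library. Chromosome 8 has the highest empty-vector bar, at 2.85 per Mb, while H4WT is highest on chromosome 11, and X and Y are low in all 4 lists.

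Across the 19 autosomes, empty-vector regions per Mb followed those of H4WT (Spearman correlation 0.947) and H4K91R (0.944), and protein-coding genes per Mb (0.770), but not those of H4K91Q (0.196). These are descriptions over chromosomes that share the same libraries. With 1 Mb windows divided into 5 equal groups by their genes, the group with most genes held 54.2% of empty-vector regions and that with fewest 4.99%. For every 100 H4WT regions, however, there were 4.01 empty-vector regions in the group with most genes and 6.86 in that with fewest. Set against H4K91R the values were 6.77 and 4.91, and against H4K91Q 39.7 and 7.52, which go the other way. The fullest window, 3 to 4 Mb on chromosome 9, held 61 regions, 60 of them in the block next to the centromere. The window at 122 to 123 Mb on chromosome 8 held 32, with 5 each in Piezo1, a mechanically gated channel gene, and Zfpm1, which encodes a GATA factor partner, and 4 in Cbfa2t3, a corepressor gene. The window at 3 to 4 Mb on chromosome 11 held 24, 17 of them at Sfi1. The windows at 120 to 121 Mb and 70 to 71 Mb on chromosome 8 held 24 and 23, with 13 in Gse1 and 4 in Crtc1, a CREB coactivator gene.

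The sex chromosomes had few regions, 11 on X (0.0644 per Mb) and 6 on Y. H4K91Q met 9 of these 17 (52.9%, 27.8 to 77.0), against 3.43% of the whole list. The interval takes regions as independent, but 3 of the 9 lie in a run of 0.872 kb on X, so it is too narrow. No share of nearby windows is given here for X and Y. On X, all 6 regions from 169994046 bp to the last at 170813194 bp met all 3 tagged lists, whereas 0 of the other 5 met H4K91Q. That end of X holds Mid1 and Asmt, at and in the pseudoautosomal region that pairs with Y in meiosis. The region at Asmt itself, the gene of the last enzyme of melatonin synthesis, was chrX:170673205-170673565, with a fold of 3.04.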

How the data were processed

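The data were HA ChIP-seq peak lists of 4 anti-HA pulldowns, 1 library per group, grouped by sample title. Peaks were called with MACS2 on mm10, per the submitters' processing notes, each pulldown against the input of its own line, per the peak names. Not given in the sources used here were the aligner, the MACS2 version, the q threshold and how duplicates were handled. The deposited score equals 10 times the −log10 q, rounded down, in 100% of regions. The authors' fold enrichment (a ratio at the summit) and −log10 q were used within each list only, and the deposited −log10 p was not used. Read numbers are not known here.

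Overlaps needed 1 bp or more. Intervals are exact Clopper-Pearson at 95% (SciPy 1.17.1) and cover counting error only. Backgrounds were all windows of the same widths in the 50 kb on each side of the regions, and genome windows of 174 bp. No test between libraries was possible. Genes came from a RefSeq table of GRCm38.p6 (21883 protein-coding genes on named chromosomes), and strand and promoter sequence from its promoter table, which was not used for chromosome 18. The steps were tested on simulated regions. Without a genome sequence, regions away from gene starts have no sequence here.

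The members and gene lists were chosen with earlier results of these data known. Named regions were the 10 of highest fold, the 10 widest and the 5 of highest fold per overlap combination, of which the text gives examples. Named genes were the 10 with most regions, the 10 of highest fold at an end and up to 3 per gene list at an end, passing over predicted genes. An item that the rule takes is not reported here. The 5 fullest windows of 1 Mb were named too. Runs (3 or more regions with gaps of at most 10 kb), the −log10 q limit of 12, and regions named by −log10 q, by a run or on X were chosen after the data were seen. The alternatives tried were limits of 5 on −log10 q in either kind of list, overlap of 50% of the region, the summit inside, tagged lists of equal length, gene-end windows of 500 bp and 2 kb, and all annotated genes.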

Additional observations from a re-analysis of the deposited data

How the results depend on the processing

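The order of overlap, H4WT above H4K91R above H4K91Q, was the same under every alternative run. Shares for H4WT, H4K91R, H4K91Q and no tagged list were 77.5%, 52.4%, 4.92% and 17.5% with empty-vector regions of −log10 q of 5 or more. With tagged regions of 5 or more, H4WT had 60.8%, H4K91R 29.3% and no list 35.5%. With 50% of the region covered these were 66.5%, 38.4% and 28.6%, with the summit inside 65.6%, 37.7% and 29.5%, and with 14314 regions per tagged list 28.2%, 19.9% and 65.4%. Without runs, an alternative chosen after seeing the data, they were 67.4%, 40.03% and 27.4%. Without regions of −log10 q of 12 or more, also chosen then, H4K91R had 41.1%. The shares at gene ends were 5.55% with 500 bp windows, 17.0% with 2 kb and 15% with all annotated genes. Those elsewhere in genes were 62.4%, 52.3% and 60.6%, and 54.5% at a −log10 q of 5 or more. Genes with a region at an end numbered 213 with 500 bp, 604 with 2 kb and 95 at a −log10 q of 5 or more. Stricter limits leave fewer regions by construction; other causes were not tested. No paired analysis was possible because each group had 1 library. Unknown depth limits every share, since more reads can bring weaker places past the caller.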
